A study of Mus musculus with 20 samples.

Results

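The genes described here are 10 components of the circadian clock, the transcriptional feedback loop that gives cells an approximately daily rhythm: Arntl, Clock, Per1, Per2, Per3, Cry1, Nr1d1, Nr1d2, Dbp and Tef. They were taken by symbol from the deposited messenger RNA table, and the transcripts of each gene were summed. They are 10 of the 21949 genes in that table, and all 10 were among the 13722 genes tested. The RNA libraries came from dissected cerebral cortex of mice of the (C57BL/6 x C3H)F1 background. The groups were PS19 transgenic mice aged 10 months (TG10M), wild-type mice aged 10 months (WT10M), PS19 mice aged 3 months (TG03M) and wild-type mice aged 3 months (WT03M), with 5 libraries each. PS19 is the line Tg(Prnp-MAPT*P301S)PS19Vle, in which the Prnp promoter drives human tau with the P301S mutation, so the transgene is not limited to the cortex or to 1 cell type. The labels give no time of day, sex or batch for any library, and do not say that each library is a separate animal, so a p-value measures the spread between these libraries.

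In the mammalian clock, the proteins of Arntl (also called BMAL1) and Clock bind E-box sequences as a pair and activate the Per, Cry, Nr1d and Dbp genes. The PER and CRY proteins return to the nucleus and repress that pair, while the nuclear receptors NR1D1 and NR1D2 repress Arntl through ROR elements. DBP and TEF activate transcription from D-box sequences. The suprachiasmatic nucleus of the hypothalamus sets the phase of the body, and the cortex has clocks of its own in neurons and glia, in which Arntl transcripts peak at a different time of day from those of Dbp, Nr1d1 and the Per genes.

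The values are FPKM, read fragments corrected for the length of the transcript and the size of the library, so levels can be set side by side between genes. The files hold no counts, and each library is estimated to hold 22.5 to 30.1 M (mega) fragments, read from the spacing of its lowest values. Prnp, whose promoter drives the transgene, was listed at 736 to 841 FPKM in TG10M libraries and 412 to 528 FPKM in WT10M libraries, and at 695 to 812 FPKM in TG03M libraries and 426 to 458 FPKM in WT03M libraries, so the genotype labels and this gene go together. All 5 neuronal markers and all 5 markers of inhibitory neurons were present in every group. Of the 5 markers of the suprachiasmatic nucleus, Prok2, Lhx1 and Six6 averaged under 0.5 FPKM. The others were higher: Avp averaged 2.52 FPKM and reached 21.8 FPKM, and Vip, also a marker of inhibitory neurons, averaged 35.8 FPKM. TG10M replicates 1 and 5 and WT10M replicate 5 stood apart from the other 17 libraries on the first principal component of all tested genes, and Hsp90aa1, a heat shock protein gene, was at 13.9 to 16.6 FPKM in these 3 and at 532 to 657 FPKM in the other 10-month libraries. Hsp90aa1 was also low, at 16.2 to 20.5 FPKM, in TG03M replicates 2 to 5. Ttr, a marker of the choroid plexus, ranged from 4.79 to 996 FPKM over the 20 libraries, and the 5 striatal markers summed to 63.0 to 201 FPKM. In bulk tissue, fewer cells of a type and less RNA per cell cannot be told apart.

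The 10 genes covered a wide range of levels. Tef was the highest, with a mean of 101 FPKM over the 20 libraries, followed by Nr1d2 with 45.1, Dbp with 31.1, Clock with 19.8, Per1 with 19.1, Arntl with 16.96, Nr1d1 with 16.5, Cry1 with 8.19, Per3 with 6.76 and Per2 with 5.98 FPKM. Tef exceeded Nr1d2, Nr1d2 exceeded Dbp, and Nr1d1 exceeded Cry1 in all 20 libraries, and Cry1 exceeded Per3 in 19. The order from Dbp to Nr1d1 was less fixed: Dbp exceeded Clock in 16 of 20 libraries, Clock exceeded Per1 in 11, Per1 exceeded Arntl in 13, and Arntl exceeded Nr1d1 in 11. Per3 exceeded Per2 in 15 of 20 libraries.

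The genes also differed in how much they varied between libraries of the same group. The within-group SD on the log2 scale was 0.402 for Dbp, 0.368 for Per2 and 0.302 for Per1, at percentiles 96.5, 95.4 and 91.9 of the genes tested. It was 0.234 for Nr1d1, 0.218 for Arntl and 0.163 for Cry1, all above the median of 0.144 over the genes tested. Tef and Clock, both at 0.135, and Nr1d2, at 0.102, were below that median. Per3 varied least, with an SD of 0.0892 at percentile 15.97.

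**Figure D1:**
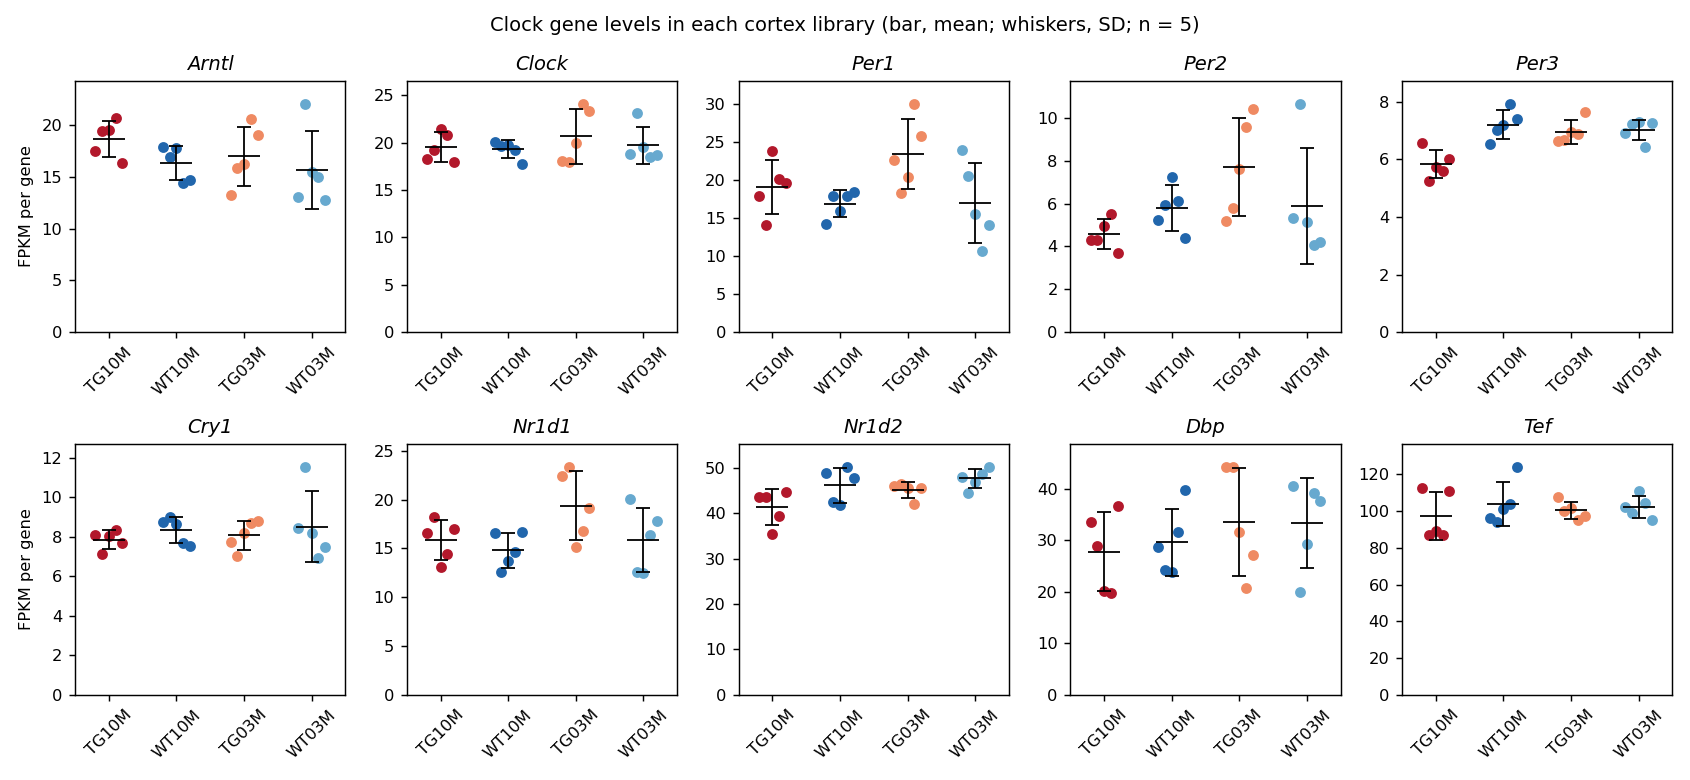
FPKM of each of the 10 clock genes in every library (points), with the group mean (bar) and SD (whiskers), n = 5 libraries per group and each vertical axis starting at 0. Per3 lies in a narrow band with TG10M lowest (5.26 to 6.56 FPKM), while Dbp spreads from 19.8 to 44.4 FPKM.

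The question asked first is whether clock transcripts differ between PS19 and wild-type cortex at 10 months, the older of the ages studied. Of the 10 genes, Per3 alone was called, and it was lower in TG10M. Over all genes tested, 0.634% were called in this comparison, 0.583% as higher and 0.051% as lower. The median difference of the 10 genes was -0.09, against 0.00 over all genes tested, with 4 positive and 6 negative. Differences are in mean log2(FPKM + 0.5), which understates the change of low genes, coordinates are on GRCm38, and adjusted p-values are from limma with Benjamini-Hochberg adjustment over the 13722 genes, called under 0.05.

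Per3 (ENSMUSG00000028957; GRCm38 chromosome 4, 151003652 to 151044665, minus strand) encodes the third of the period proteins, which form repressor complexes with the cryptochromes; in mice it is less needed for rhythm generation than PER1 and PER2. Its level was 6.56, 5.26, 5.75, 5.60 and 6.01 FPKM in TG10M replicates 1 to 5, against 6.55, 7.02, 7.18, 7.93 and 7.39 FPKM in WT10M replicates 1 to 5. TG10M replicate 1 and WT10M replicate 1 were nearly equal, and they were the only pair of libraries whose order was the other way. The means were 5.84 ± 0.485 FPKM in TG10M and 7.22 ± 0.508 FPKM in WT10M (SD, n = 5 each). The difference was -0.28 on the log2 scale (SE 0.06, limma p = 0.000221, adjusted p = 0.0422), and a two-sided exact permutation test of 5 against 5 libraries gave p = 0.0159, where the smallest p possible is 0.00794. A single transcript carried the whole value.

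The Per3 call stood close to the threshold. The limma adjusted p was 0.103, 0.0785, 0.105 and 0.0757 without TG10M replicates 2, 3, 4 and 5, and 0.0703, 0.125 and 0.136 without WT10M replicates 2, 3 and 4. With only these 2 groups in the limma fit it was 0.185. The direction held: leaving out single libraries gave differences of -0.32 to -0.25. Without the 3 libraries that stood apart the difference was -0.34 (limma adjusted p = 0.0176), with 5.26 to 5.75 FPKM in the remaining TG10M libraries and 6.55 to 7.93 FPKM in the remaining WT10M libraries. Among the 3 that stood apart, the TG10M libraries had 6.01 and 6.56 FPKM and the WT10M library 7.39 FPKM. The lack of overlap in the remaining libraries was not particular to Per3. In them Tef was at 87.0 to 88.9 FPKM in TG10M and 93.8 to 104 FPKM in WT10M. Arntl was at 19.5 to 20.7 FPKM in TG10M and 14.4 to 17.9 FPKM in WT10M. The share of all genes tested that do not overlap there was not counted.

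Markers of other cell types moved with genotype at 10 months beside Per3. The sum of the 5 astrocyte markers (Gfap, Aqp4, Aldh1l1, Slc1a2, Gja1) was 609 to 811 FPKM in TG10M and 501 to 592 FPKM in WT10M. That of the 5 microglial markers was 186 to 245 FPKM in TG10M and 120 to 191 FPKM in WT10M, and that of the 5 endothelial markers was 85.7 to 94.2 FPKM in TG10M and 64.8 to 86.6 FPKM in WT10M. The 5 neuronal markers summed to 1962 to 2130 FPKM in TG10M and 1963 to 2153 FPKM in WT10M. The 5 oligodendrocyte markers summed to 1416 to 1537 FPKM in TG10M and 1163 to 1493 FPKM in WT10M (medians 1489 and 1262 FPKM), and the 5 striatal markers to 63.0 to 143 FPKM in TG10M and 127 to 201 FPKM in WT10M. None of these markers was at 0 in every library. The mitochondrial transcript mt-Co1 was at 8627 to 11807 FPKM in TG10M, against 6379 to 6915 FPKM in WT10M replicates 1 to 4 and 13045 FPKM in WT10M replicate 5, which stood apart. Over the 20 libraries, Per3 correlated with the astrocyte sum at r = -0.62 (permutation p = 0.0040, adjusted p = 0.0478 over 39 relations; rho = -0.47, p = 0.0379, adjusted p = 0.211; r = -0.38 without the 2 farthest libraries). After each group was centred on its own mean, r was -0.07. With the microglial sum r was -0.60 (permutation p = 0.0049, adjusted p = 0.0478; rho = -0.41, p = 0.0705, adjusted p = 0.229; r = -0.56 without the 2 farthest libraries), and 0.35 after centring. With the endothelial sum, rho was -0.63 (permutation p = 0.0032, adjusted p = 0.0472) and r was -0.51 (permutation p = 0.0219, adjusted p = 0.138), also -0.51 without the 2 farthest libraries and -0.30 after centring. With the thalamic sum r was -0.50 as measured and after centring (permutation p = 0.0248, adjusted p = 0.138; rho = -0.43, p = 0.0579, adjusted p = 0.220), and -0.29 without the 2 farthest libraries. Most of that sum, which was 21.8 to 31.4 FPKM over the libraries, came from Rora, with a mean of 19.8 FPKM. Rora is also on the list of other clock genes, so the thalamic sum does not measure thalamic tissue alone. Per3 was not tested against the thalamic markers without Rora. The relations with astrocytes and microglia thus passed by r alone, and that with endothelium by rho alone. The part of cell composition in the Per3 difference was not tested.

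Per3 lies within the larger gene Camta1, which encodes a transcription activator that binds calmodulin and is transcribed from the same strand. The 41014 bases of Per3 are all inside Camta1, and the Per3 transcript shares 0 exonic bases with the annotated Camta1 transcripts. Camta1 averaged 38.4 FPKM and differed by -0.26 between TG10M and WT10M (SE 0.14, limma adjusted p = 0.397). Whether reads from Camta1 outside its exons enter the Per3 level was not tested. The deposited tables list no annotated non-coding transcript that overlaps any of the 10 genes.

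The promoter of Per3 is shown because D-boxes, the sites of DBP, TEF and HLF, occur in it more than once, and DBP and TEF are among the genes described here. The 250 bases before the RefSeq start (GRCm38.p6, chr4:151044666-151044915, minus strand) are given 5′ to 3′, with the D-boxes in capitals.
Per3: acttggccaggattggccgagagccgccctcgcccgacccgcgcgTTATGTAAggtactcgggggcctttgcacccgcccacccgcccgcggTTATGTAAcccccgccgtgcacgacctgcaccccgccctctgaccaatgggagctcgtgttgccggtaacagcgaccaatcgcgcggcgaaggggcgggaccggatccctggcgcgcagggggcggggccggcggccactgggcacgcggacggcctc

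The search used the letters TTANGTAA on both strands, in the RefSeq windows of 250 bases before to 50 bases after each start. The 2 D-boxes of Per3 are identical, begin at positions -205 and -158, and are 39 bases apart. Of 32851 windows, 2.32% held a D-box and 0.0822% held at least 2. Of the 9 genes with a window (14 windows in all), Per3 alone held one. A window was not used for Per2. These matches describe sequence only.

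The other period genes and Cry1 were not called at 10 months. Per1 (ENSMUSG00000020893; chromosome 11, 69095217 to 69109960, plus strand), a period gene that is also induced acutely by light and by glucocorticoids, was at 17.9, 14.1, 23.9, 20.1 and 19.6 FPKM in TG10M and 14.2, 17.95, 15.9, 17.9 and 18.5 FPKM in WT10M. These groups overlap, and the difference was 0.16 (SE 0.18, limma adjusted p = 0.700). Per2 (ENSMUSG00000055866; chromosome 1, 91415982 to 91459324, minus strand), a core repressor, was at 4.30, 4.32, 4.96, 5.53 and 3.70 FPKM in TG10M and 5.23, 5.94, 7.26, 6.11 and 4.39 FPKM in WT10M. Per2 therefore leaned the same way as Per3, by -0.31, but with an SE of 0.21 (limma adjusted p = 0.518). Cry1 (ENSMUSG00000020038; chromosome 10, 85131700 to 85185064, minus strand), the cryptochrome that closes the loop with the period proteins, averaged 7.85 ± 0.470 FPKM in TG10M and 8.32 ± 0.656 FPKM in WT10M (SD, n = 5 each).

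The activators and the nuclear receptors were not called either. Arntl (ENSMUSG00000055116; chromosome 7, 113207465 to 113314126, plus strand) was at 17.5, 19.5, 19.5, 20.7 and 16.4 FPKM in TG10M and 17.9, 16.9, 17.8, 14.4 and 14.7 FPKM in WT10M, with overlap between the groups and a difference of 0.19 (SE 0.13, limma adjusted p = 0.509). Clock (ENSMUSG00000029238; chromosome 5, 76209868 to 76304792, minus strand) averaged 19.5 ± 1.55 FPKM in TG10M and 19.3 ± 0.935 FPKM in WT10M (SD, n = 5 each). Nr1d2 (ENSMUSG00000021775; chromosome 14, 18204054 to 18239127, minus strand) was at 43.7, 43.7, 35.4, 39.5 and 44.7 FPKM in TG10M and 48.9, 42.5, 41.8, 50.3 and 47.8 FPKM in WT10M. Its difference of -0.16 (SE 0.06) had an unadjusted limma p of 0.0223 and an adjusted p of 0.272, so Per3 and Nr1d2 were the 2 of 10 genes with an unadjusted p under 0.05, against 14.1% of all genes tested. Nr1d1 (ENSMUSG00000020889; chromosome 11, 98767932 to 98775333, minus strand) averaged 15.9 ± 2.05 FPKM in TG10M and 14.8 ± 1.79 FPKM in WT10M (SD, n = 5 each).

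The output genes Dbp and Tef, both of the PAR bZIP family, overlapped between genotypes at 10 months. Dbp (ENSMUSG00000059824; chromosome 7, 45705088 to 45710203, plus strand) was at 33.6, 28.9, 20.2, 19.8 and 36.6 FPKM in TG10M and 28.7, 24.2, 23.9, 31.5 and 39.8 FPKM in WT10M. Tef (ENSMUSG00000022389; chromosome 15, 81802421 to 81826863, plus strand) was at 113, 87.0, 88.9, 87.0 and 111 FPKM in TG10M and 96.2, 93.8, 101, 104 and 124 FPKM in WT10M. In both genotypes the highest Tef and Dbp values were in libraries that stood apart. The differences were -0.11 for Dbp (SE 0.23, limma adjusted p = 0.857) and -0.10 for Tef (SE 0.08, limma adjusted p = 0.596).

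**Figure D2:**
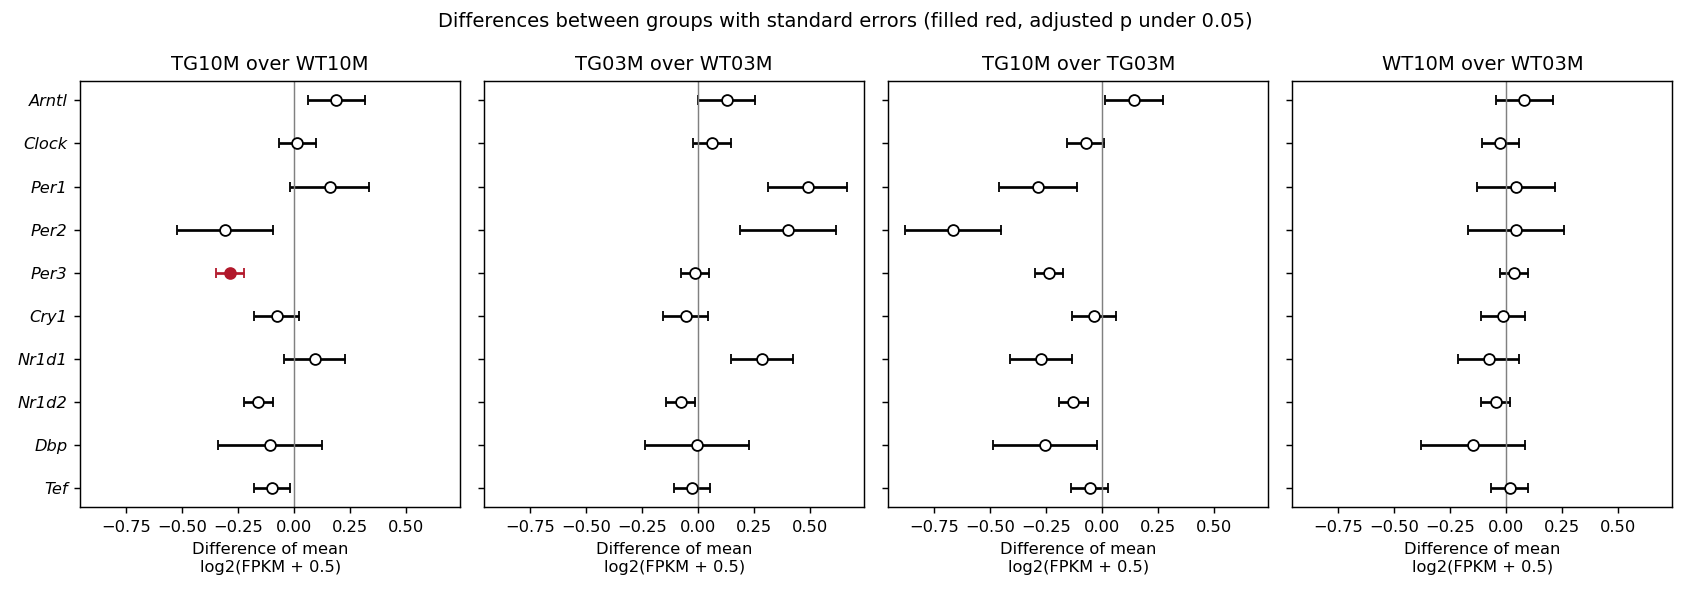
Differences of mean log2(FPKM + 0.5) for the 10 clock genes in the 4 comparisons, 1 panel each, with limma standard errors as whiskers and genes with an adjusted p under 0.05 filled red. Per3 in TG10M over WT10M, at -0.28, is the single filled point.

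At 3 months none of the 10 genes was called by limma, against 0.299% of all genes tested (0.277% higher and 0.0219% lower), and 1 of 10 had an unadjusted p under 0.05, against 10.6% of all genes. That gene was Per1, with 22.7, 18.3, 20.5, 30.02 and 25.7 FPKM in TG03M and 23.9, 20.5, 15.5, 10.7 and 14.1 FPKM in WT03M. The 2 groups overlap, and the difference was 0.49 (SE 0.18, limma adjusted p = 0.297). Per2 was at 5.18, 5.78, 7.597, 9.56 and 10.4 FPKM in TG03M and 5.32, 10.7, 5.14, 4.09 and 4.22 FPKM in WT03M, a difference of 0.40 (SE 0.21, limma adjusted p = 0.519). Nr1d1 averaged 19.4 ± 3.55 FPKM in TG03M and 15.9 ± 3.30 FPKM in WT03M (SD, n = 5 each; limma adjusted p = 0.471). Per3 was at 6.63, 6.68, 6.96, 6.90 and 7.64 FPKM in TG03M and 6.91, 7.23, 7.29, 6.44 and 7.27 FPKM in WT03M. Here the Per3 groups lay in the same range, with a difference of -0.01 (SE 0.06, limma adjusted p = 0.963; exact permutation p = 0.770). The mitochondrial transcript mt-Co1 was at 8514 to 10633 FPKM in TG03M and 5998 to 6549 FPKM in WT03M. The inhibitory marker sum was 570 to 623 FPKM in TG03M and 498 to 555 FPKM in WT03M. The oligodendrocyte sum was 1496 to 1800 FPKM in TG03M and 1288 to 1439 FPKM in WT03M, while the other marker sums overlapped. Hsp90aa1, low in TG03M replicates 2 to 5, was at 547 to 687 FPKM in WT03M. Their part in the 3-month differences was not tested.

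Between 10 and 3 months in PS19 cortex, Per3 was at 5.26 to 6.56 FPKM in TG10M and 6.63 to 7.64 FPKM in TG03M. The share of all genes tested whose groups do not overlap in this comparison was not counted. The difference was -0.24 (SE 0.06, limma p = 0.00127, adjusted p = 0.0769), so it missed the call, and the exact permutation p was 0.00794, the smallest that 5 against 5 libraries can give. It was called with array weights, which give less weight to libraries that vary more (adjusted p = 0.0497). Without the 3 libraries that stood apart the difference was -0.30 (limma adjusted p = 0.0521). The astrocyte marker sum was 609 to 811 FPKM in TG10M and 527 to 683 FPKM in TG03M, and the microglial sum 186 to 245 FPKM in TG10M and 129 to 151 FPKM in TG03M, and their part was not tested here either. None of the 10 genes was called by limma in this comparison, against 0.845% of all genes tested (0.641% higher and 0.204% lower), and 2 of 10 had an unadjusted p under 0.05, against 16.1%. The other gene was Per2, with 3.70 to 5.53 FPKM in TG10M and 5.18 to 10.4 FPKM in TG03M and a difference of -0.66 (SE 0.21, limma adjusted p = 0.141). Across the list 9 of 10 differences were negative and Arntl alone was positive, with a median of -0.18 against 0.00 over all genes tested.

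In wild-type cortex the same genes showed no call with age, against 0.0656% of all genes tested (0.051% higher and 0.0146% lower), and 0 of 10 had an unadjusted limma p under 0.05. The differences between WT10M and WT03M lay between -0.15 for Dbp and 0.08 for Arntl, and Per3 averaged 7.22 ± 0.508 FPKM in WT10M and 7.03 ± 0.361 FPKM in WT03M (SD, n = 5 each; exact permutation p = 0.508). The comparisons share groups: TG10M enters both the genotype difference at 10 months and the age difference in PS19. The test of the interaction, the genotype difference at 10 months minus that at 3 months, called none of the 10 genes, against 0.0364% of all genes tested, and 2 of 10 had an unadjusted p under 0.05, against 5.04%. It was -0.27 for Per3 (SE 0.09, limma adjusted p = 0.874) and -0.71 for Per2 (SE 0.30, limma adjusted p = 0.962), so no difference between the ages in the genotype effect was called.

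Although few genes differed between groups, clock genes varied together from library to library. Of the 45 pairs among the 10 genes, 15 were called at an adjusted p under 0.05 by a permutation test of Pearson's r with 100000 resamples, 10 positive and 5 negative. With values centred within each group 23 pairs were called, of which 13 are among those 15. The share of called pairs over all genes tested was not counted, so the counts do not show a trait particular to clock genes. Many other genes followed Dbp more closely: its nearest clock gene, Nr1d1, ranked 339 of 12323 genes (r = 0.78 with groups centred). The signs fell into 2 blocks. Dbp, Nr1d1, Nr1d2 and Tef were positive with each other, and Clock, Arntl, Cry1 and Per2 were positive with each other. Every pair with 1 gene in each block was negative, in the full and in the centred values. The blocks were drawn after the values were seen.

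**Figure D3:**
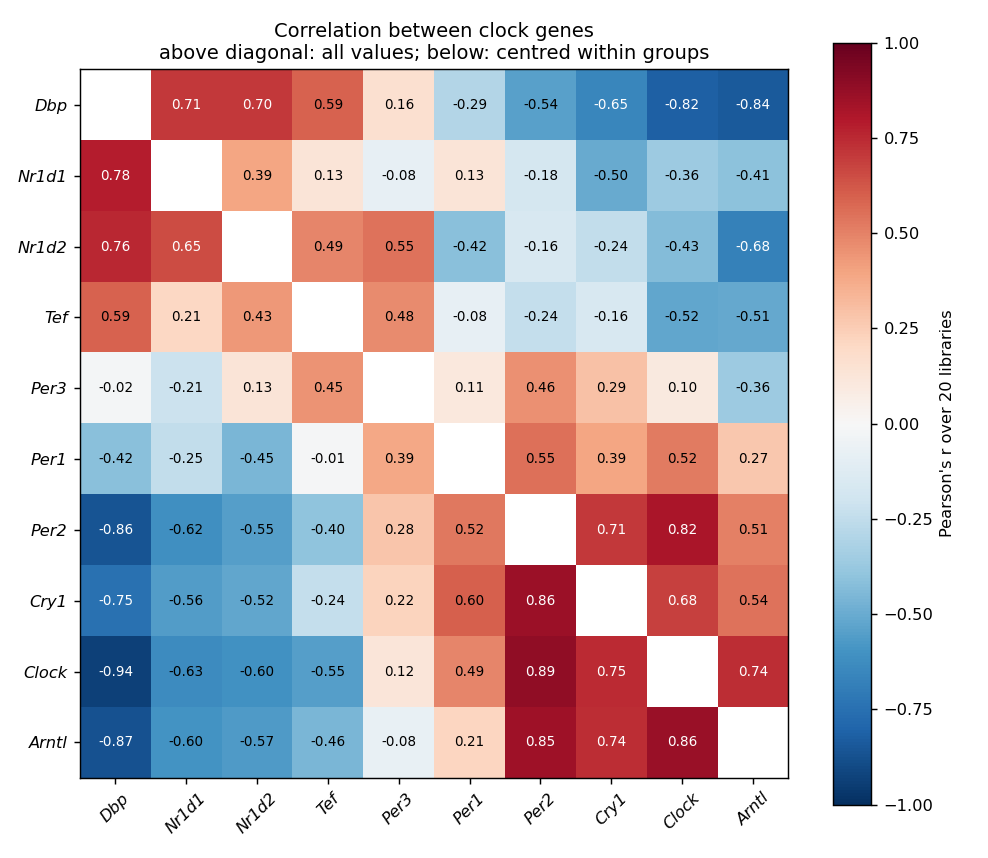
Pearson's r of log2(FPKM + 0.5) between the 10 clock genes over 20 libraries, above the diagonal as measured and below it with each group centred on its own mean. Red is positive and blue negative, and the blue corner joins Dbp, Nr1d1, Nr1d2 and Tef with Per2, Cry1, Clock and Arntl.

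The negative pairs were led by Dbp with Arntl and Dbp with Clock, the first by r as measured and the other with groups centred. Dbp is activated by the protein pair that Arntl encodes with Clock, and its transcript peaks at another time of day than that of Arntl. Over the 20 libraries Dbp with Arntl gave r = -0.84 and rho = -0.86 (permutation p = 1e-05 for each, the smallest that 100000 resamples give; adjusted p = 0.000300 for r and 0.000450 for rho). It was -0.79 without the 2 libraries farthest from the median of Dbp, -0.87 with groups centred and -0.86 without the 3 libraries that stood apart. Dbp with Clock gave r = -0.82 and rho = -0.86 (permutation p = 2e-05 for each, adjusted p = 0.000300 and 0.000450), -0.80 without the 2 farthest libraries and -0.94 with groups centred. Dbp with Cry1 gave r = -0.65 and rho = -0.65 (permutation p = 0.00065 and 0.00256, adjusted p = 0.00292 and 0.0115), and -0.63 without the 2 farthest libraries.

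The libraries with the 4 lowest and the 4 highest Dbp levels came, together, from all 4 groups. The lowest Dbp levels, 19.8 and 20.2 FPKM in TG10M replicates 4 and 3, 20.001 FPKM in WT03M replicate 2 and 20.7 FPKM in TG03M replicate 4, went with Arntl levels of 20.7, 19.5, 22.1 and 20.6 FPKM in the same libraries. The highest Dbp levels, 44.4 and 44.3 FPKM in TG03M replicates 1 and 2, 40.6 FPKM in WT03M replicate 1 and 39.8 FPKM in WT10M replicate 5, went with Arntl levels of 13.3, 15.9, 13.1 and 14.7 FPKM. Both extremes therefore occurred within TG03M and within WT03M. In TG03M, Dbp was at 44.4, 44.3, 31.6, 20.7 and 27.2 FPKM and Clock at 18.004, 17.98, 19.97, 24.1 and 23.4 FPKM in replicates 1 to 5. In WT03M, Dbp was at 40.6, 20.001, 29.3, 39.3 and 37.8 FPKM and Clock at 18.8, 23.1, 19.5, 18.5 and 18.6 FPKM. Replicate 2 of WT03M was thus the library of its group with low Dbp and high Clock, and replicates 4 and 5 were those of TG03M.

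**Figure D4:**
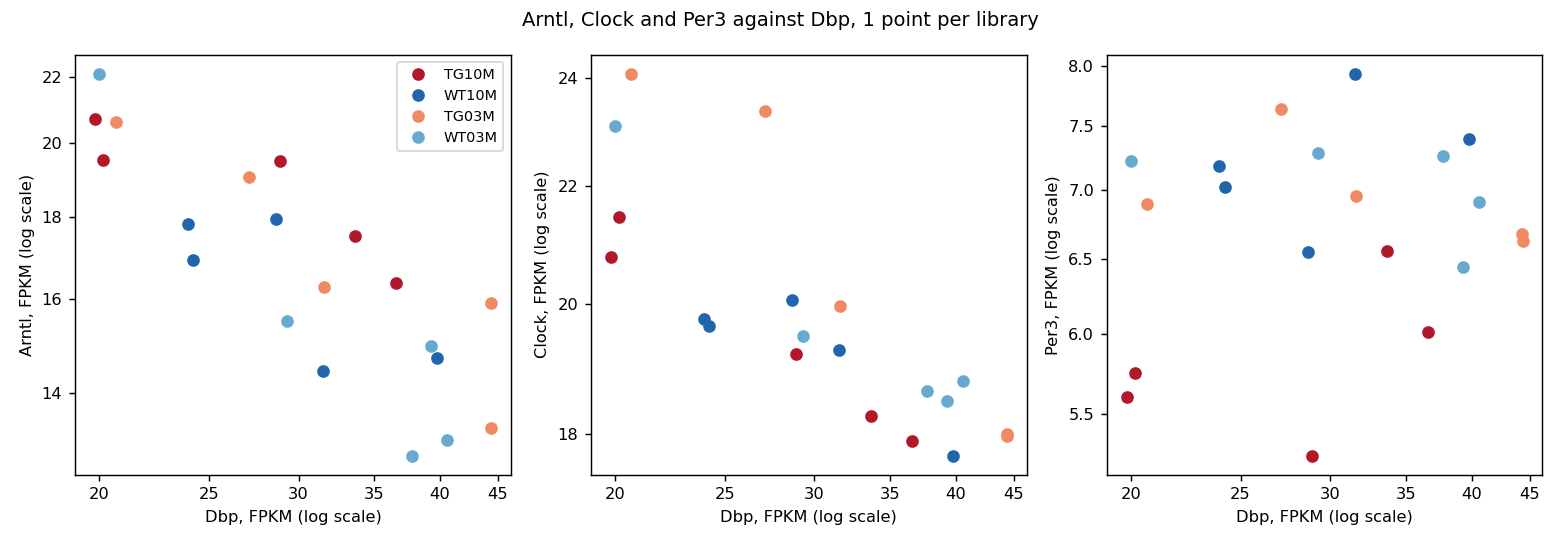
Arntl, Clock and Per3 against Dbp in FPKM on log axes, 1 point per library, coloured by group. Arntl and Clock are lower where Dbp is higher (r = -0.84 and -0.82), while Per3 shows no such slope (r = 0.16) and TG10M points lie low in its panel.

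On the same axis, Nfil3, a repressor that competes with DBP at D-boxes, was at 9.74 and 9.42 FPKM in TG10M replicates 3 and 4, 10.4 FPKM in TG03M replicate 4 and 9.79 FPKM in WT03M replicate 2, against 3.89 and 4.94 FPKM in TG03M replicates 1 and 2, 4.79 FPKM in WT03M replicate 1 and 4.69 FPKM in WT10M replicate 5. Hspa5, a chaperone gene of the endoplasmic reticulum, followed the axis in part of the libraries. It was at 340 FPKM in TG03M replicate 4 and 375 FPKM in WT03M replicate 2, but at 148 and 146 FPKM in TG10M replicates 3 and 4, where Dbp was as low. In TG03M replicates 3 and 5, with Dbp in the middle of the range, Hspa5 was at 233 and 234 FPKM. In the 4 libraries with the highest Dbp it was at 105 to 114 FPKM. The astrocyte marker sum moved with the axis too: r was -0.63 with Dbp (permutation p = 0.0028, adjusted p = 0.0478 over 39 relations; rho = -0.63, p = 0.0036; r = -0.44 without the 2 farthest libraries) and 0.67 with Arntl (permutation p = 0.0010, adjusted p = 0.0409; rho = 0.69, p = 0.0009; r = 0.61 without the 2 farthest libraries). Centred within groups, these were -0.75 and 0.59. Depth gave r = 0.37 with Dbp and -0.17 with Arntl (permutation p = 0.112 and 0.482, adjusted p = 0.336 and 0.660). The part of cell composition in this axis was not tested, and with no time of day in the labels the levels could not be placed on a clock phase.

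Of the 10 positive pairs called, all but Per1 with Per2 and Per3 with Nr1d2 joined genes of the same block. Per2 with Clock gave r = 0.82 and rho = 0.69 (permutation p = 2e-05 and 0.00117, adjusted p = 0.000300 and 0.00752), and 0.69 without the 2 farthest libraries. Arntl with Clock, the partners of the activating pair, gave r = 0.74 and rho = 0.71 (permutation p = 0.00010 and 0.00064, adjusted p = 0.00112 and 0.00576), and 0.70 without the 2 farthest libraries. Dbp with Nr1d1 gave r = 0.71 and rho = 0.64 (permutation p = 0.00048 and 0.00254, adjusted p = 0.00292 and 0.0115), and 0.67 without the 2 farthest libraries. Dbp with Nr1d2 gave r = 0.70 and rho = 0.66 (permutation p = 0.00029 and 0.00164, adjusted p = 0.00217 and 0.00922), and 0.70 without the 2 farthest libraries. Per2 with Cry1 gave r = 0.71 and rho = 0.70 (adjusted permutation p = 0.00135 and 0.00675), and r = 0.86 with groups centred (adjusted p = 0.0016). Without the 2 farthest libraries it was 0.56 (adjusted p = 0.0699) and was not called.

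Per3 stood outside both blocks. Its r with Dbp was 0.16, with Clock 0.10, with Per1 0.11 and with Arntl -0.36 (adjusted permutation p = 0.585, 0.708, 0.693 and 0.178). With Tef and Per2 it was 0.48 and 0.46 (adjusted permutation p = 0.0703 and 0.0847), and without the 3 libraries that stood apart the pair with Tef was called, at 0.67 (adjusted p = 0.0144). The single pair of Per3 that was called was that with Nr1d2, at r = 0.55 (permutation p = 0.0135, adjusted p = 0.0404; rho = 0.42, p = 0.0686, adjusted p = 0.140), and it was 0.52 without the 2 farthest libraries (adjusted p = 0.112) and 0.13 with groups centred. Within TG10M, the lowest Nr1d2 level, 35.4 FPKM in replicate 3, went with 5.75 FPKM of Per3, the median of that group. The lowest Per3 level, 5.26 FPKM in replicate 2, went with 43.7 FPKM of Nr1d2. Per1 was called with Per2 alone, at r = 0.55 (permutation p = 0.0114, adjusted p = 0.0393; rho = 0.53, p = 0.0181, adjusted p = 0.0583). That pair was 0.39 without the 2 farthest libraries (adjusted p = 0.252). Per1 with Clock gave r = 0.52, just short of the call. It was 0.34 without the 2 farthest libraries and 0.59 without the 3 that stood apart (adjusted permutation p = 0.0397). With groups centred, Per1 was positive with Per2, Clock, Arntl and Cry1. It was negative with Dbp, Nr1d1, Nr1d2 and Tef, though only at -0.01 with Tef. None of these centred pairs was called by r, and those with Per2, Cry1 and Nr1d2 were called by rho.

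**Figure D5:**
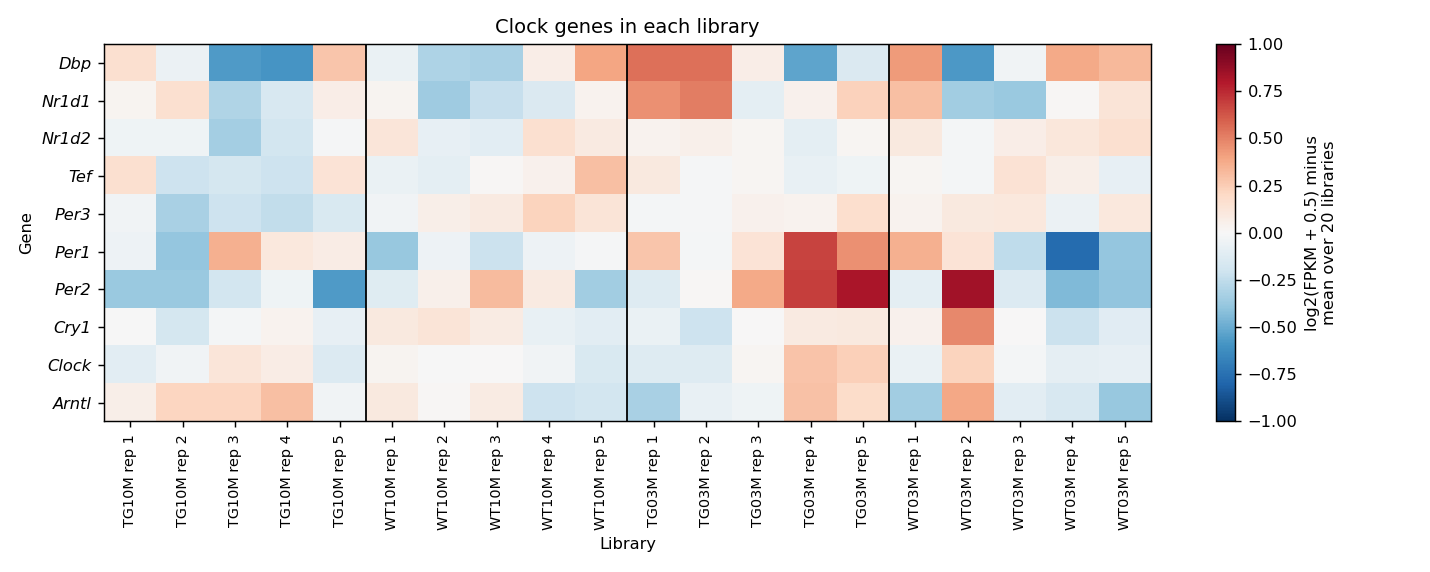
log2(FPKM + 0.5) of each clock gene (rows) in each library (columns, by group and replicate) minus its mean over the 20 libraries. TG03M replicates 4 and 5, TG10M replicates 3 and 4 and WT03M replicate 2 are blue for Dbp and red for Arntl, and the Per3 row is bluest in TG10M.

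E-boxes in the promoters are shown because the genes that vary together include targets of the Arntl and Clock pair. CACGTG was found in 3 of the 9 genes with a RefSeq window (Per1, Cry1 and Tef). By window, it was in 4 of the 14 windows of the 9 genes, and in 7.15% of all 32851 windows. The form CACGTT, searched on both strands and thus also read as AACGTG, was found in 2 of the 14 windows (Cry1 and Nr1d1), and in 4.68% of all windows. Each stretch below is 60 bases on the strand of the gene, with the motifs in capitals: Per1 at chr11:69098759-69098818 (plus), Cry1 at chr10:85185085-85185144 (minus), and the 2 starts of Tef at chr15:81802523-81802582 and chr15:81811254-81811313 (plus), on GRCm38.p6.
Per1: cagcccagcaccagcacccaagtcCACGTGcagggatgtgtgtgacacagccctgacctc
Cry1: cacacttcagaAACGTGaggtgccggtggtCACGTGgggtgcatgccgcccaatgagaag
Tef, first start: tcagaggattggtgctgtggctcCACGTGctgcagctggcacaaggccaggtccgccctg
Tef, second start: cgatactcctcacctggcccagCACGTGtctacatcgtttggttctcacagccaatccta

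Arntl, the target of NR1D1 and NR1D2, held the ROR letters TAGGTCA shortly after its second RefSeq start (chr7:113207531-113207557, plus), where 2.61% of all windows hold them on either strand. The match begins 30 bases after the start, and the letters are in capitals.
Arntl: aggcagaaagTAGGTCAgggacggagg
Over the libraries Arntl was negative with Nr1d2 at r = -0.68 and rho = -0.76 (permutation p = 0.00065 and 0.00015, adjusted p = 0.00292 and 0.00225), which was also -0.68 without the 2 farthest libraries and -0.57 with groups centred. With Nr1d1 it was -0.41 (adjusted permutation p = 0.123) and -0.60 with groups centred (adjusted p = 0.0394). Any link between the sequence match and these correlations was not tested. None of the searched letters was found in the windows of Dbp, Clock and Nr1d2.

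Of the transcripts listed for the 10 genes, 15 of 21 averaged at least 0.5 FPKM. Tef was carried by 2 transcripts of nearly equal level, with means of 51.5 and 48.9 FPKM. Per1 was carried by 3, with means of 9.11, 6.80 and 2.91 FPKM, and Clock by 3, with 12.02, 4.81 and 2.97 FPKM. The second Per1 transcript averaged 8.70 ± 3.42 FPKM in TG03M and 5.04 ± 2.45 FPKM in WT03M, and the first 11.01 ± 2.72 FPKM in TG03M and 8.94 ± 2.71 FPKM in WT03M (SD, n = 5 each). The other genes were carried by a single transcript. Dbp shares 539 of the 1837 bases of its transcript with Sphk2 on the other strand, and Nr1d1 shares 263 of 2721 bases with Thra on the other strand. The sources used here do not say whether counting used strand, so these levels are uncertain to that extent. Thra averaged 232 FPKM and differed by -0.14 between TG10M and WT10M (SE 0.05, limma adjusted p = 0.215), and Sphk2 averaged 14.2 FPKM and differed by 0.02 (SE 0.09, limma adjusted p = 0.943).

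Of 17 other clock genes, 0 were called by limma in any of the 5 comparisons, against 0.0364% to 0.845% of all genes tested, with medians of -0.01 at 10 months, 0.01 at 3 months, -0.01 with age in wild type and -0.05 with age in PS19. The smallest adjusted p was that of Bhlhe40, a repressor at E-boxes, which averaged 32.9 ± 6.31 FPKM in TG10M and 43.1 ± 6.19 FPKM in TG03M (SD, n = 5 each; -0.39, SE 0.15, limma adjusted p = 0.218). Hlf, the third PAR bZIP gene, averaged 22.6 ± 4.51 FPKM in TG10M and 27.8 ± 5.27 FPKM in WT10M (SD, n = 5 each; -0.29, SE 0.13, limma adjusted p = 0.342). It was at 17.5 to 18.5 FPKM in TG10M replicates 1 and 5 and WT10M replicate 5, which stood apart. The other libraries had 23.5 to 27.5 FPKM in TG10M and 29.3 to 30.9 FPKM in WT10M. At an unadjusted p under 0.05 there were 1 of 17 at 10 months (Hlf), 1 at 3 months (Bhlhe40), 3 with age in PS19 (Hlf, Bhlhe40 and Fbxl21) and 0 in the other comparisons. Over all genes tested these shares were 14.1% at 10 months, 10.6% at 3 months and 16.1% with age in PS19, so the counts were near or below the background. Among 10 clock output genes, 0 were called by limma in any comparison, against the same shares of all genes as above. Por at 3 months and Por and Wee1 with age in PS19 had an unadjusted p under 0.05, or 1 and 2 of 10, near the 10.6% and 16.1% of all genes. Por, which encodes the electron donor of the cytochrome P450 enzymes, had the smallest adjusted p, with 28.3 ± 1.87 FPKM in TG10M and 33.5 ± 3.48 FPKM in TG03M (SD, n = 5 each; -0.23, SE 0.07, limma adjusted p = 0.102). In the same comparison Wee1, a kinase that restrains entry into mitosis, differed by -0.27 (SE 0.13, limma adjusted p = 0.305).

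The genes whose pattern was most like that of a clock gene were ranked by Pearson's r over the 20 libraries with groups centred, among 12323 genes with a mean of at least 1 FPKM. This is a description without a test. For Per3 they were Pdss1 (r = 0.79), Alms1 (0.78), Rhbdf1 (0.75), Slc25a36 (0.73) and Elk3 (0.72). The closest of the other 9 clock genes was Tef, at rank 586 with r = 0.45. For Dbp they included Abhd16a (r = 0.96), Dact2 (0.95), Pik3ip1 (0.94) and Msto1 (0.93), and Nr1d1 ranked 339. For Arntl they were Galnt7 (r = 0.92), Irak2 (0.91), Dio2 (0.91), Dnaja4 (0.91) and Fam111a (0.91), and Clock ranked 34 and Per2 ranked 58. From the other end, Clock ranked 12315 of 12323 in likeness to Dbp.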

How the data were processed

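The deposited values are FPKM per transcript, made by the authors from reads of cortical RNA libraries sequenced for messenger and long non-coding RNA on an Illumina HiSeq 4000, per the labels. The submitters' processing notes name CASAVA, TopHat2 and Cuffdiff among the tools and GRCm38 as the build, with no role, order or version. Whether replicates were normalized together, and whether counting used strand, is not given in the sources used here.

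FPKM was summed over the transcripts of each of 21949 genes (50660 transcripts), and 27 symbols that a spreadsheet had turned into dates were restored by gene ID. Genes averaging 0.5 FPKM or more (13722) were tested on log2(FPKM + 0.5) with limma 3.58.1 in R 4.3.3 (1 fit of 20 libraries, 1 mean per group, trend in the variance prior, two-sided) and Benjamini-Hochberg adjustment over all of them, called under 0.05. The fit and the correlations were tested on simulated data with known answers. Permutation tests were two-sided: exact for a single gene, and with 100000 resamples for correlations. The correlations were adjusted over 45 pairs of clock genes and over 39 relations of Per3, Dbp and Arntl with marker sums, depth and gene lists. The 2 libraries left out of a correlation were those farthest from the median of the first gene or, for marker sums, depth and gene lists, of that measure.

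The files give no counts. Depth was estimated from the steps between low values in 1815 genes with 1 transcript of over 4000 bases, and 77.6 to 93.3% of those values lay within 0.1 of a whole multiple of the step. The step was set from the same values, so the depth is an estimate. Replicates of a group correlated at 0.991 to 0.997 over genes, and no library was a copy of another.

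The clock genes, the companion lists, the marker lists and the naming rule were chosen with earlier results of these data known. The rule names all 10 clock genes, up to 4 genes per companion list with the smallest p, the 5 genes most like Per3, Dbp and Arntl, and member transcripts averaging at least 0.5 FPKM. A gene that the rule names for likeness to Dbp is not reported here. The libraries of the ends of the Dbp axis, Nfil3 and Hspa5 were picked after their values were seen. Promoter sequences are RefSeq windows on GRCm38.p6, and 9 of 10 genes matched by symbol. Gene coordinates are from GENCODE M21. Alternatives were other pseudocounts and filters, median centring, quantile normalization, array weights, a robust variance prior, the replicate number as a block, the compared groups alone, and leaving out libraries.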

Additional observations from a re-analysis of the deposited data

Results flagged for a closer look

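Among the 40 sets of 5 libraries examined (10 genes in 4 groups), 3 held a library far from the other 4, with a gap of more than 0.71 of the whole range to its nearest neighbour. Chance gives about 1 in 20 such sets.

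Per2 was at 10.7 FPKM in WT03M replicate 2, against 4.09 to 5.32 FPKM in the other WT03M libraries, a gap of 0.812 of the range. Clock was at 23.1 FPKM in the same library, with 19.5 FPKM as the next highest and a gap of 0.785 of the range. Nr1d2 was at 42.1 FPKM in TG03M replicate 4, the lowest of its group, against 45.6 to 46.5 FPKM in the others, a gap of 0.795 of the range. Both libraries are among those with the lowest Dbp levels, at 20.001 FPKM in WT03M replicate 2 and 20.7 FPKM in TG03M replicate 4.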

How the results depend on the processing

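The count of clock genes called at 10 months, 1 (Per3), was 0 under quantile normalization (Per3 limma adjusted p = 0.0501) and with the compared groups alone (adjusted p = 0.185), and 0 to 1 when single libraries were left out. For Per3, 8 of 11 other settings and 3 of 10 fits without a single library kept the call, with limma adjusted p of 0.00706 to 0.185 and 0.0156 to 0.136. The cause of these losses was not tested. The replicate numbers did not pair the libraries (correlations between same-numbered libraries of -0.42 to 0.66), and with the replicate number as a block the count was 0 (Per3 limma adjusted p = 0.0677).

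With age in PS19 the count was 1 (Per3, lower) with array weights. The counts in the other comparisons were 0 in all settings run. The exact permutation p of Per3 at 10 months was 0.0159 to 0.0317 without single libraries, and 0.0571 without the 3 libraries that stood apart, an alternative added after seeing the data and the smallest p that 3 against 4 libraries allow. At 3 months it was 0.222 to 0.968 without single libraries. The count of called pairs, 15 of 45, was 23 with groups centred and 9 without the 2 farthest libraries, where fewer libraries entered. No result reversed its called direction. Group sizes of 5 and an SE of 0.21 to 0.23 for Per2 and Dbp limit what could be detected for these genes.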

Other observations

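Per1 is also an early response gene and a target of glucocorticoids, so 2 further lists bear on it. Of 10 immediate early genes, which neurons induce within minutes of activity, 0 were called by limma in any comparison, against 0.0364% to 0.845% of all genes tested. With age in PS19, 1 of 10 (Npas4) had an unadjusted p under 0.05, below the 16.1% of all genes, and 0 did in the other comparisons. With age in PS19 all 10 differences were negative, with a median of -0.37 against 0.00 over all genes tested, and at 3 months 9 of 10 were positive between TG03M and WT03M, with a median of 0.45. These comparisons share the TG03M libraries. The smallest adjusted p was that of Npas4, an activity-dependent transcription factor gene, which averaged 9.14 ± 1.08 FPKM in TG10M and 15.4 ± 6.28 FPKM in TG03M (SD, n = 5 each; -0.64, SE 0.28, limma adjusted p = 0.272). Among the 10 clock genes, Per1, Per2, Nr1d1 and Clock had the same signs in these comparisons. They were at 0.49, 0.40, 0.29 and 0.06 at 3 months and -0.29, -0.66, -0.27 and -0.07 with age in PS19. For Clock the SE was 0.08 in both. The other clock genes did not have these signs. Per3, Dbp, Tef, Nr1d2 and Cry1 were negative at 3 months, and Arntl was positive with age in PS19, at 0.14. These genes were picked by sign after the values were seen, and a link with the immediate early genes was not tested.

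Of 8 genes induced by glucocorticoids, 0 were called by limma in any comparison, while 3 at 10 months, 1 at 3 months and 1 with age in PS19 had an unadjusted p under 0.05, against 14.1%, 10.6% and 16.1% of all genes tested. At 10 months 5 differences were positive and 3 negative, with a median of 0.17, and at 3 months the median was 0.25. The negative ones at 10 months were Zbtb16 at -0.28, Fkbp5 at -0.18 and Sult1a1 at -0.10 (limma adjusted p = 0.585, 0.602 and 0.875). Of the positive ones, Nfkbia, an inhibitor of NF-kB, differed by 0.43 between TG10M and WT10M (SE 0.12, limma adjusted p = 0.132). Sgk1, a kinase gene, averaged 53.8 ± 18.5 FPKM in TG10M and 33.9 ± 9.77 FPKM in WT10M (SD, n = 5 each; 0.63, SE 0.21, limma adjusted p = 0.173). Errfi1, an inhibitor of the EGF receptor, differed by 0.29 (SE 0.10, limma adjusted p = 0.179). Fkbp5, a chaperone of the glucocorticoid receptor, differed by -0.35 between TG10M and TG03M (SE 0.15, limma adjusted p = 0.275). The sum of this list gave r = 0.52 with Arntl over the 20 libraries (permutation p = 0.0181, adjusted p = 0.138 over 39 relations; rho = 0.44, p = 0.0546; r = 0.51 without the 2 farthest libraries), which failed the correction.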
